A study of Rattus norvegicus with 8 samples.

Results

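The resistin-like family of the rat has 4 genes on these arrays, Retn (resistin), Retnla, Retnlb and Retnlg (resistin-like alpha, beta and gamma). They were taken by name, through the accession of each array probe, out of the 19899 genes whose signals were tested, and all 4 passed the filter on dim probes. The family was picked because of its values on these arrays, so the differences of its members between diets are given as descriptions, with their errors and without a p-value. Each gene was read by 1 probe in 2 spots. The probe was well above background in all 16 rats, for which 1 of its 2 spots was enough. Retn was the dimmest, down to a log2 signal of 6.46 in 1 rat, where the lowest signal well above background was 5.97. Spots of 1 probe differed by at most 0.38 on the log2 scale for Retn and by at most 0.27, 0.18 and 0.22 for Retnla, Retnlb and Retnlg (largest difference within a rat).

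The rats were female Wistar animals 6 weeks old, fed a reference diet (REF, AIN-93 M), the reference diet with cocoa (C10), a diet with the fiber of cocoa and very little of its polyphenols (CF), or a diet with inulin as soluble fiber (I). A short piece from mid-colon gave the RNA of 4 rats per diet, labelled with Cy3 or Cy5, and 2 rats of different diets shared each of the 8 two-color arrays in a loop. The arrays held between 68.6 and 83.9 % of spots well above background per rat. In such bulk tissue fewer cells of a type and less RNA per cell cannot be told apart. All 8 tested markers of colon epithelium (Epcam, Cdh1, Krt8, Krt20, Vil1, Car1, Cdx2 and Lgals4) were well above background in the 16 rats, and their mean log2 signal lay between 13.87 and 14.83. In 3 rats (REF rat 4, CF rat 2 and I rat 2) the posterior homeobox gene Hoxb13 lay between 6.60 and 9.96 on the log2 scale, against 12.36 to 14.88 in the other 13 rats, so member differences are also given without these 3 rats.

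Resistin-like proteins are small, cysteine-rich secreted proteins. In rodents resistin is made mainly by adipocytes. The beta member is a product of colonic goblet cells, released into the mucus layer, induced by gut bacteria and by interleukin 4 and interleukin 13 through the transcription factor STAT6, and able to kill Gram-negative bacteria. The alpha member is a textbook marker of macrophages activated by the same interleukins and is also made by eosinophils, adipose tissue and some epithelia, whereas the gamma member is known from myeloid cells of bone marrow and blood.

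Retn lies alone on chromosome 12 (chr12:6508653-6511115, GRCr8). The other 3 genes lie together on chromosome 11 within 54.4 kb, in the order Retnlg (chr11:65393907-65395639), Retnla (chr11:65424685-65426484) and Retnlb (chr11:65446433-65448319). The 250 bases before the start of Retnlb and of Retnlg are shown because they adjoin the goblet-made and the leukocyte-made member that the results compare. They come from RefSeq (GRCr8, minus strand, written 5′ to 3′), chr11:65448320-65448569 for Retnlb and chr11:65395640-65395889 for Retnlg, and capitals mark matches to the motifs searched.

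Retnlb: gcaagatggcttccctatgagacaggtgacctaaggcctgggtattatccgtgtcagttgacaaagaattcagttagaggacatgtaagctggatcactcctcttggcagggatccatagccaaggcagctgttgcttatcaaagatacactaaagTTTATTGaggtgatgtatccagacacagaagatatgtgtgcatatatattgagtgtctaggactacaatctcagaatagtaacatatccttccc
Retnlg: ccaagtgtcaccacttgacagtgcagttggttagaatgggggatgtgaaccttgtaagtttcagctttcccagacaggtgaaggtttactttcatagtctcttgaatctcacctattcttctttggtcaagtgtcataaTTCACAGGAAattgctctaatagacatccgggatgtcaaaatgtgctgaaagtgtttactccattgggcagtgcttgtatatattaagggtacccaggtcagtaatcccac

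Motifs were searched on both strands. The Retnlb window held the letters TTTATNG, the core bound by the intestinal factor CDX2, at positions -94 to -88 from the start, and so did 10.1 % of 27457 rat promoter windows of this length. The Retnlg window held TTC and GAA with 4 bases between them, the spacing bound by STAT6, at positions -111 to -102, as did 6.29 % of the windows. Neither window held the letters of the other motif, and neither held TTCNNNGAA (STAT, 7.52 % of windows), TTGCNNAA (C/EBP, 9.20 %) or GAGGAAG (PU.1, 10.1 %). A match describes the letters in these windows and no site in use. For Retnla the window lay wholly inside the annotated gene and is not shown. Its positions -250 to -212 and positions -40 to -2 of Retnlg aligned over 39 columns with 87.2 % identity, whereas the best local alignment of the Retnlb and Retnlg windows had 10 columns.

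Retnlb, the goblet-made member, varied more from rat to rat than nearly any other gene. Its log2 signals were 14.14, 13.66, 14.73 and 10.97 in REF rats 1 to 4, 12.92, 12.80, 9.86 and 12.67 in C10, 15.55, 10.87, 15.99 and 14.57 in CF, and 16.23, 12.27, 16.44 and 15.84 in I. The 3 highest rats of the I group and the highest 2 of the CF group stood above every REF rat, whereas no C10 rat exceeded 12.92. From the lowest to the highest of the 16 rats the signal spanned 95.8-fold. The standard deviation of rats within a diet was 1.88 and exceeded that of 99.9 % of all genes tested.

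By the mean, Retnlb stood in the order I (15.19 ± 1.97, SD, n = 4), CF (14.24 ± 2.33), REF (13.38 ± 1.66) and C10 (12.06 ± 1.47), and each neighbour in this order lay within the spread of the next. The fit, which used the pairing of rats on arrays, gave differences from REF of 2.11 (SE 1.10) for I, 1.69 (SE 1.20) for CF and -0.78 (SE 1.10) for C10 on the log2 scale. C10 was lower than CF by a fitted -2.47 (SE 1.10) and lower than I by -2.89 (SE 1.20), with overlapping groups in each case. On single arrays, with the dye effect removed, C10 minus REF was -2.04 and -0.05 and C10 minus CF was -4.88 and 0.98. I minus REF was 0.90 and 5.68. In each of these comparisons the 2 arrays differed by more than their mean difference. CF minus I was 0.57 and 1.48, with CF higher on both arrays, whereas the fit put CF lower than I (-0.42, SE 1.10).

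The 3 rats of low Hoxb13 held the lowest Retnlb signal of their diets. Hoxb13, a gene of the most posterior part of the body axis, was at 6.60 in REF rat 4, 9.71 in CF rat 2 and 9.96 in I rat 2, where Retnlb was at 10.97, 10.87 and 12.27. In C10 Hoxb13 was high, from 13.42 to 14.88, in all 4 rats. Without the 3 rats all 9 remaining REF, CF and I rats (13.66 to 16.44) lay above the 4 C10 rats (9.86 to 12.92), and 0.658 % of all genes were separated in this way. The fitted differences were then -1.83 (SE 0.58) for C10 minus REF, -3.67 (SE 0.65) for C10 minus CF and -3.87 (SE 0.71) for C10 minus I. CF minus REF was then 1.84 (SE 0.73) and I minus REF 2.04 (SE 0.72). Without REF rat 4 alone these 2 differences were 0.52 and 0.66, and without CF rat 2 alone CF minus REF was 3.05. C10 minus REF was -0.08 without REF rat 1 alone and -1.67 without REF rat 4 alone. This choice of rats was made after their values were seen, and the part of the sampled position in the differences was not tested.

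**Figure D1:**
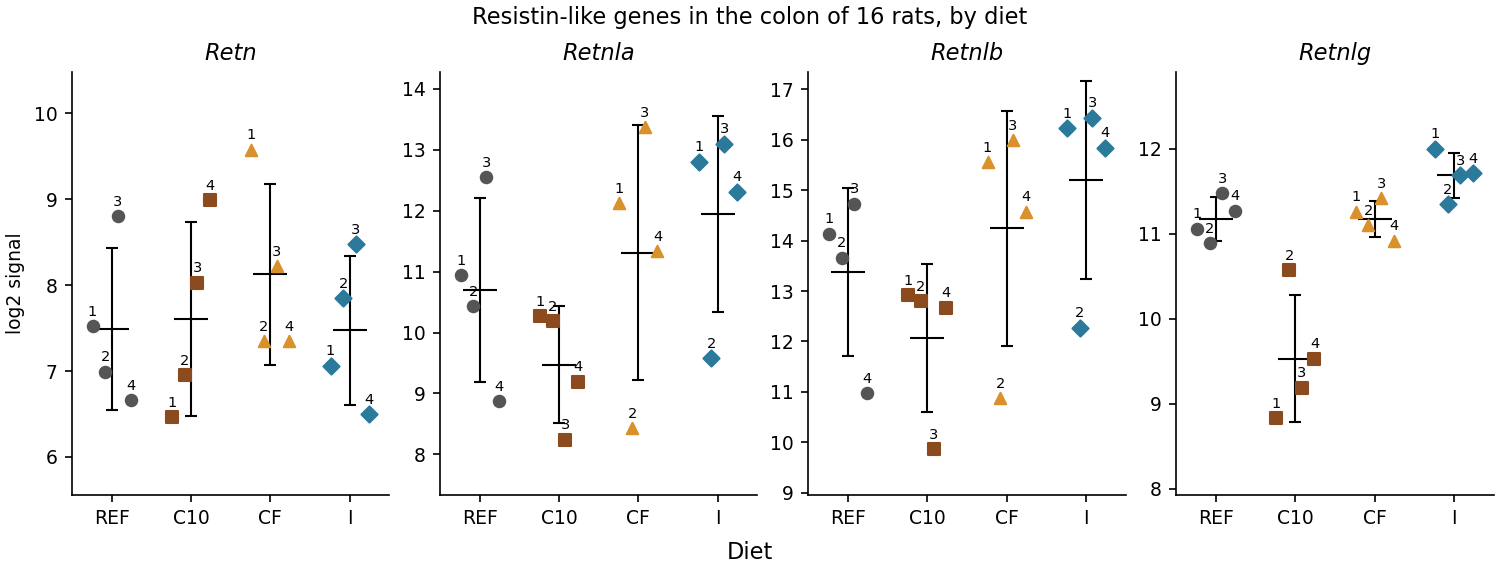
Log2 signal of the 4 resistin-like genes in each rat (points, with the rat's number) by diet, with the mean and SD of the 4 rats. Retnlg lay between 8.83 and 10.57 in C10 and between 10.89 and 12.00 in all other rats, whereas the diets overlapped for the other members.

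Retnla, known elsewhere as a marker of alternatively activated macrophages and of eosinophils, followed Retnlb. Its log2 signals were 10.94, 10.43, 12.55 and 8.87 in REF, 10.27, 10.19, 8.24 and 9.19 in C10, 12.12, 8.43, 13.37 and 11.33 in CF, and 12.80, 9.58, 13.10 and 12.31 in I. The same 3 rats, REF rat 4, CF rat 2 and I rat 2, were the lowest of their diets, and C10 rat 3 was the lowest of the 16. The signal spanned 34.9-fold over the rats, and its standard deviation within diets (1.60) exceeded that of 99.9 % of genes.

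Mean signals of Retnla stood in the order I (11.95 ± 1.61, SD, n = 4), CF (11.31 ± 2.10), REF (10.70 ± 1.52) and C10 (9.48 ± 0.96), again with neighbours inside each other's spread. The fitted differences from REF were 1.36 (SE 0.88) for I, 1.33 (SE 0.96) for CF and -0.61 (SE 0.88) for C10. Against CF and I, C10 differed by -1.95 (SE 0.88) and -1.97 (SE 0.96). Without the 3 rats of low Hoxb13 all 9 other rats (10.43 to 13.37) lay above the C10 rats (8.24 to 10.27), as held for 0.658 % of all genes, and the fitted C10 minus REF difference was -1.34 (SE 0.53). Without REF rat 4 alone the CF and I differences of Retnla from REF were 0.55 and 0.38, and C10 minus REF was -1.21, against -0.07 without REF rat 3 alone.

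Over the 16 rats Retnla and Retnlb had a Pearson r of 0.98 and a Spearman rho of 0.96. With the diet means removed r was 0.97, and without the 2 rats farthest from the median it was 0.97. These rats share diets and, in pairs, arrays, and Retnla and Retnlb are neighbouring paralogs. The probe sequences were not used here, so reads of one transcript by the probe of the other were not tested. The log2 difference Retnlb minus Retnla was not constant, from 1.85 in REF rat 4 to 3.78 in I rat 4, and its mean per diet was 2.68 in REF, 2.59 in C10, 2.93 in CF and 3.25 in I.

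**Figure D2:**
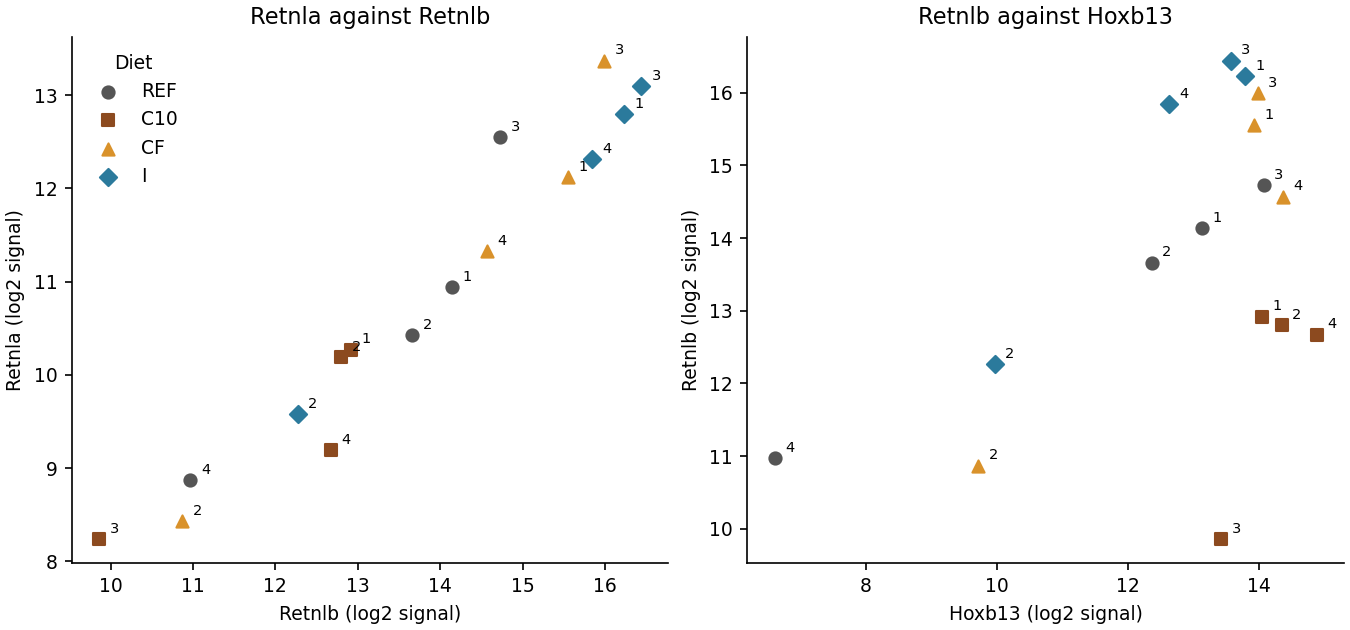
Left, log2 signal of Retnla against that of Retnlb, and right, Retnlb against Hoxb13, in 16 rats (numbered points, a symbol and color per diet). Retnla and Retnlb lie along 1 line (r = 0.98 with the dye effect removed, which the plotted signals keep). REF rat 4, CF rat 2 and I rat 2 lie apart at Hoxb13 signals of 9.96 or less.

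Retnlg, the member made by myeloid leukocytes, was the one in which the C10 group stood apart. Its log2 signals were 11.06, 10.89, 11.48 and 11.27 in REF, 8.83, 10.57, 9.19 and 9.53 in C10, 11.26, 11.10, 11.42 and 10.92 in CF, and 12.00, 11.35, 11.69 and 11.71 in I. All 4 C10 rats lay below all 12 others, which held for 0.543 % of all genes tested. Outside C10 the gene was steady, with a standard deviation of 0.25 in REF, 0.21 in CF and 0.26 in I, against 0.75 in C10.

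The mean signal of Retnlg was 9.53 in C10, 11.17 in REF, 11.17 in CF and 11.69 in I (n = 4 each). REF and CF, the nearest above C10, overlapped each other, and so did I and REF, since I rat 2 (11.35) lay below REF rat 3 (11.48). C10 was lower than REF by a fitted -1.55 (SE 0.25), a 2.94-fold lower signal, than CF by -1.64 (SE 0.25) and than I by -2.07 (SE 0.28). The array-wise values, with the dye effect removed, had 1 sign on all 4 arrays that held a C10 rat, -2.05 and -0.50 against REF and -2.26 and -1.38 against CF. C10 rat 2 was the nearest to the other diets, and without it the C10 minus REF difference was -2.03, whereas without C10 rat 1 it was -1.27. Differences of CF and I from REF were 0.09 (SE 0.28) and 0.51 (SE 0.25). Without the 3 rats of low Hoxb13 C10 minus REF was -1.50 (SE 0.27) and I minus REF 0.86 (SE 0.33).

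Retn, made by adipocytes in rodents, showed no order of diets. Its log2 signals were 7.52, 6.99, 8.80 and 6.66 in REF, 6.46, 6.95, 8.03 and 8.99 in C10, 9.58, 7.35, 8.22 and 7.35 in CF, and 7.06, 7.85, 8.48 and 6.50 in I. High and low rats occurred in each diet, and the lowest signal (C10 rat 1) and the second highest (C10 rat 4) belonged to the same group. The means were 8.12 ± 1.05 (SD, n = 4) in CF, 7.61 ± 1.13 in C10, 7.50 ± 0.94 in REF and 7.47 ± 0.87 in I. Fitted differences from REF were -0.12 (SE 0.56) for C10, 0.21 (SE 0.61) for CF and -0.21 (SE 0.56) for I, so that the sign for C10 in the fit was opposite to that of the means. Without the 3 rats of low Hoxb13 the C10 value was -0.32 (SE 0.55).

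**Figure D3:**
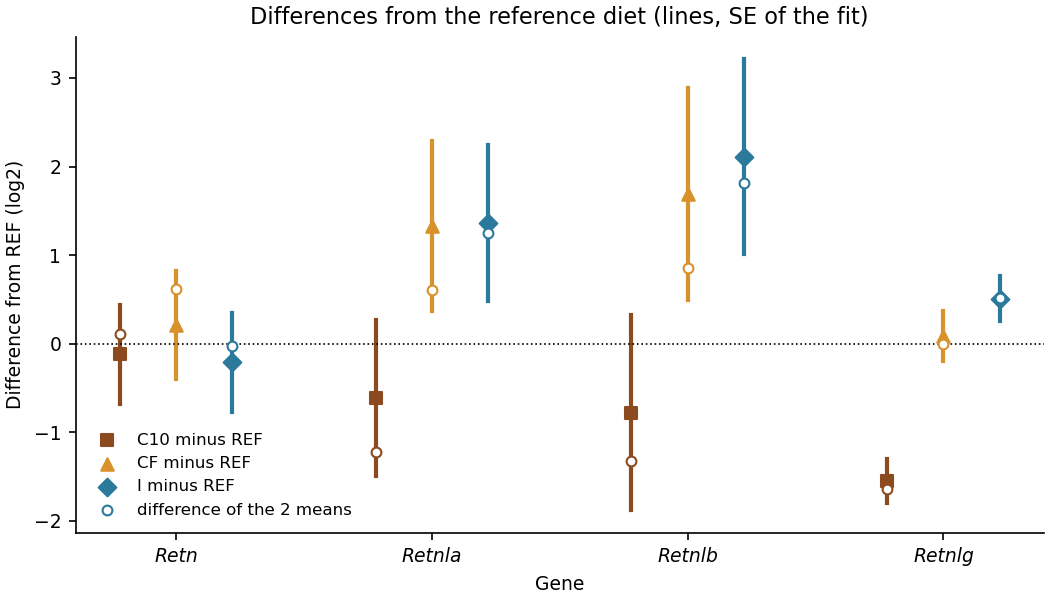
Fitted log2 difference of C10, CF and I from REF for each member (filled symbols, lines 1 SE to either side) with the plain difference of the 2 group means (open circles). For Retnlg both values put C10 below REF by more than 1.5, whereas for Retnla and Retnlb the lines are wide and the fitted and plain values differ.

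Across all genes the same fit (limma, Benjamini-Hochberg) called 45 of 19899 genes, or 0.226 %, between C10 and REF at an adjusted p below 0.05 and at least 2-fold, 41 of them (0.206 %) lower in C10. The count was 17 without REF rat 2, 25 without REF rat 4 and 106 without REF rat 3. Of the 4 members 1, Retnlg, was among them, though not without REF rat 1 or without the 3 rats of low Hoxb13. It was also the 1 member among the 24 genes (0.121 %) called between C10 and CF and the 35 (0.176 %) called between C10 and I. Between C10 and CF 0 genes were called without CF rat 1 or CF rat 2 and 1 without C10 rat 3, and between C10 and I 14 were called without I rat 2. Because the family was chosen on these contrasts, nothing is read from these counts. No gene (0 %) was called between CF and REF or between I and REF. In these comparisons limma gave 1426 (7.17 %) and 1274 (6.4 %) genes at an unadjusted p below 0.05.

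The goblet-made and the leukocyte-made member were compared as the difference of their log2 signals within each rat. Retnlb minus Retnlg averaged 2.20 ± 2.10 (SD, n = 4) in REF, 2.53 ± 1.0 in C10, 3.07 ± 2.03 in CF and 3.51 ± 1.44 in I. Relative to REF the mean difference was 0.33 higher in C10, 0.87 higher in CF and 1.30 higher in I, each within the spread between rats. These are plain means that did not use the pairing of rats on arrays. With log-ratios within arrays, which used it, the values were 1.27 for C10, 2.43 for CF and 1.93 for I. REF rat 4 (-0.79) and CF rat 2 (0.28) gave the lowest values. Without REF rat 4 the values relative to REF were -0.50 for C10, 0.04 for CF and 0.47 for I. Without CF rat 2 the CF value was 1.97, and without I rat 2 the I value was 2.17. Retnla minus Retnlg gave 0.42, 0.62 and 0.73 relative to REF for C10, CF and I, and -0.22, -0.02 and 0.09 without REF rat 4. With log-ratios within arrays it gave 1.52, 1.95 and 0.97. In both differences the C10 and REF rats overlapped.

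Across rats the 4 members formed 1 close pair. Retnlg had an r of 0.63 with Retnlb and of 0.62 with Retnla over the 16 rats, and of 0.39 and 0.40 after removal of the diet means. Retn had r values of 0.22, 0.21 and 0.05 with Retnla, Retnlb and Retnlg. Over all genes the median r with a member lay between -0.05 and 0.01, and the upper 2.5 % of genes began at an r of 0.57 for Retnlb, 0.63 for Retn and Retnlg and 0.64 for Retnla.

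Among genes with a symbol, those of the highest Pearson r with Retnlb were Retnla (0.98), Itln1 (0.88), Mptx1 (0.87), Rnf208 (0.83) and Fcgbp (0.80). Itln1 encodes intelectin 1, a lectin of goblet and Paneth cells that binds microbial sugars, and Fcgbp a mucus protein of goblet cells. Mptx1 encodes a mucosal pentraxin of the gut. For Retnla they included Retnlb (0.98), Rnf208 (0.87), Med12 (0.84), a subunit of the Mediator complex, and Mptx1 (0.83). By deviations from the diet means 2 of the 5 genes remained in the list of each.

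The genes of the highest r with Retnlg were Lilra5 (0.95), a receptor of myeloid cells, C1qb (0.93), a chain of complement C1q, Cd68 (0.91), a lysosomal protein of macrophages, Pld4 (0.91) and Ldhb (0.91), a lactate dehydrogenase found in many cell types, and C1qb and Lilra5 remained after removal of the diet means (0.87 and 0.87). By rank correlation 1 of these 5 genes, Cd68, remained. For Retn they were Agt (0.92), the precursor of angiotensin, Acaca (0.87) and Fasn (0.87), the enzymes of fatty acid synthesis, Gys2 (0.86), the liver form of glycogen synthase, and Gtpbp6 (0.86). Agt ranked first under each of the 3 measures.

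Lists of marker genes were set beside the members, each as the mean log2 signal of its tested genes in each rat. The mean of 12 macrophage genes had an r of 0.90 with Retnlg (0.88 with diet means removed), against 0.55 with Retnlb. Of these 12 genes 8 were in the upper 2.5 % of r with Retnlg, with a median r of 0.80 against -0.03 over all genes. The count was not particular to macrophage genes, since 9 of 11 mast cell genes were in it too, with a median r of 0.80. These single-gene values keep the diet means. Macrophage means ranged from 9.88 to 10.32 in C10, 10.22 to 10.57 in REF, 10.40 to 10.68 in CF and 10.40 to 10.75 in I. Whether Retnlg changed within these cells or along with them was not tested.

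Of the macrophage list, Siglec1 (sialoadhesin) fell in C10 against REF by 0.83 on the log2 scale (SE 0.10, limma adjusted p = 0.00226), and it was 1 of 12 to pass an adjusted p below 0.05, which 1.49 % of all genes did. Adgre1, a surface receptor of macrophages, at -0.67 (adjusted p = 0.0625), and Aif1 at -0.58 (adjusted p = 0.0704) did not pass. The median over the list was -0.45, against 0.013 over all genes, and 9 of the 12 had a negative difference. For genes of alternatively activated macrophages 0 of 11 passed. Clec10a stood at -0.53 (adjusted p = 0.107), Tgm2 at -0.46 (adjusted p = 0.0556) and Pparg at -0.43 (adjusted p = 0.422). Chil3 had no match in the gene table and Pdcd1lg2 did not pass the filter.

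Neutrophil genes, the myeloid set in which the gamma member is best known, were weak in this tissue. Of 16 with a probe 7 passed the filter, and Elane, Ngp, Ltf, Cxcr2, Mmp8, Prtn3, Ctsg, Np4 and Defal1 did not. The mean of the 7 had an r of 0.42 with Retnlg and ranged from 6.78 to 7.11 in C10 and from 6.81 to 7.35 in REF. None of the 7 passed between C10 and REF, with RatNP-3b at -0.94 (adjusted p = 0.188), Fcnb at -0.41 (adjusted p = 0.617) and Camp at -0.15 (adjusted p = 0.422).

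Mast cell genes were, like Retnlg, lower in C10. Between C10 and REF 9 of 11 fell at an adjusted p below 0.05, all but Kit and Tpsab1, and 7 of them at least 2-fold, against 0.975 % and 0.206 % of all genes lower in C10 by these rules. Without the 3 rats of low Hoxb13 4 genes over all lists were called at least 2-fold in place of 7. Mcpt1, a mast cell protease, fell by 2.46 (SE 0.32, adjusted p = 0.00315), Mcpt10 fell by 1.70 (SE 0.20, adjusted p = 0.00234), Mcpt8 fell by 1.69 (SE 0.27, adjusted p = 0.0102), and Hdc, the histamine-forming enzyme, fell by 1.08 (SE 0.07, adjusted p = 1.7e-05). Cpa3, Mcpt4, Cma1, Fcer1a and Ms4a2 fell by 1.59, 1.39, 1.07, 0.81 and 0.76. The list mean ranged from 7.33 to 8.06 in C10 and from 8.49 to 9.06 in the other 12 rats. Its r with Retnlg was 0.86 over the 16 rats and 0.07 after removal of the diet means, whereas that of the macrophage list stayed at 0.88. Mcpt2 had no match in the gene table. The part of mast cells in the Retnlg difference was not tested.

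**Figure D4:**
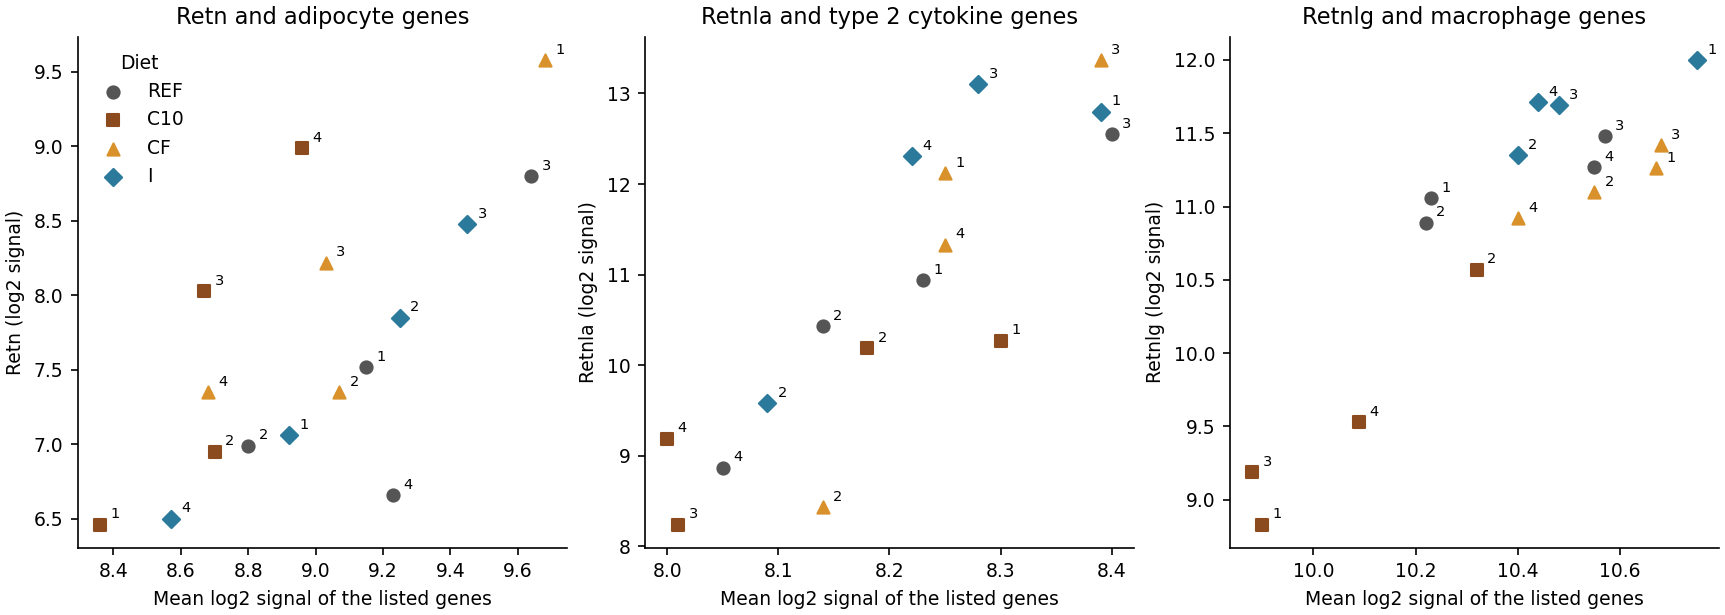
Log2 signal of Retn, Retnla and Retnlg (vertical axes) against the mean log2 signal of adipocyte, type 2 cytokine and macrophage genes (horizontal axes), 1 numbered point per rat and a symbol per diet. The r values, 0.71, 0.87 and 0.90, are of signals with the dye effect removed, whereas the plotted member signals keep it. C10 rats 1, 3 and 4 lie lowest in both macrophage genes and Retnlg.

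Goblet cell genes did not follow the goblet-made member as a group. The mean of 13 tested genes ranged from 12.65 to 13.11 over all rats and had an r of -0.02 with Retnlb. Fcgbp (0.80) and Clca1 (0.63) had the highest r and Foxa3 (-0.70) the lowest. None of the 13 passed between C10 and REF. Agr2, a disulfide isomerase needed for mucin, stood at -0.80 (adjusted p = 0.164), Zg16, a lectin-like mucus protein, at -0.68 (adjusted p = 0.244) and St6galnac1, a sialyltransferase of mucin, at 0.56 (adjusted p = 0.0556). Muc2, Best2, Capn9 and Spink4 were not matched to a probe.

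The type 2 cytokine axis is known to induce the alpha and beta members. The mean of its 15 tested genes had an r of 0.87 with Retnla and 0.79 with Retnlb (0.86 and 0.78 with diet means removed), against 0.45 with Retnlg, although it ranged only from 8.0 to 8.4. In this plain mean genes of wide spread weigh most. Il2rg had the widest spread, with an SD of 0.60 to 0.75 within diets, and an r of 0.64 with Retnla. The highest r with Retnla were those of Trpm5, a channel of tuft cells (0.78), Il13ra2 (0.73) and Il33 (0.72), and the lowest that of Il13ra1 (-0.36). Of the 15 genes 3 were in the upper 2.5 % of r with Retnla and 3 with Retnlb, and Il13ra2 was well above background in 6 of 16 rats. None of the 15 passed between C10 and REF, where Trpm5 stood at -0.35 (adjusted p = 0.346), Dclk1 at -0.19 (adjusted p = 0.323) and Stat6 at 0.18 (adjusted p = 0.411). Il4, Il9 and Il25 did not pass the filter on dim probes, and Tslp was not matched to a probe. Il13 differed by -0.04 between C10 and REF. Its mean log2 signal was only 6.37 and it was well above background in 8 of 16 rats, so a change could be missed.

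The mean of 5 eosinophil genes had an r of 0.82 with Retnla and 0.72 with Retnlb, but the single genes did not follow as a group. Their median r was 0.37 with Retnla and 0.36 with Retnlb, 0 of 5 were in the upper 2.5 % of genes for either, and Alox15 had an r of -0.44 and -0.36. With Retnlg the list mean had an r of 0.41. The median r of the single genes with Retnlg was 0.66, and 3 of 5 were in the upper 2.5 %. Ccl11 had the highest r (0.83) and Alox15 the lowest (-0.64). Between C10 and REF Ccl11 (eotaxin, a chemokine made by stromal cells that attracts eosinophils) fell by 0.98 (SE 0.17, adjusted p = 0.0174), Alox15 rose by 0.57 (SE 0.10, adjusted p = 0.0202), and Prg2, the major basic protein, stood at 0.85 (SE 0.56, adjusted p = 0.455). The granule genes Epx and Prg3 and the receptor Il5ra did not pass the filter, nor did Rnase3 (Ear11). The list mean ranged from 7.75 to 8.16 in C10 and from 7.70 to 8.43 in REF.

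**Figure D5:**
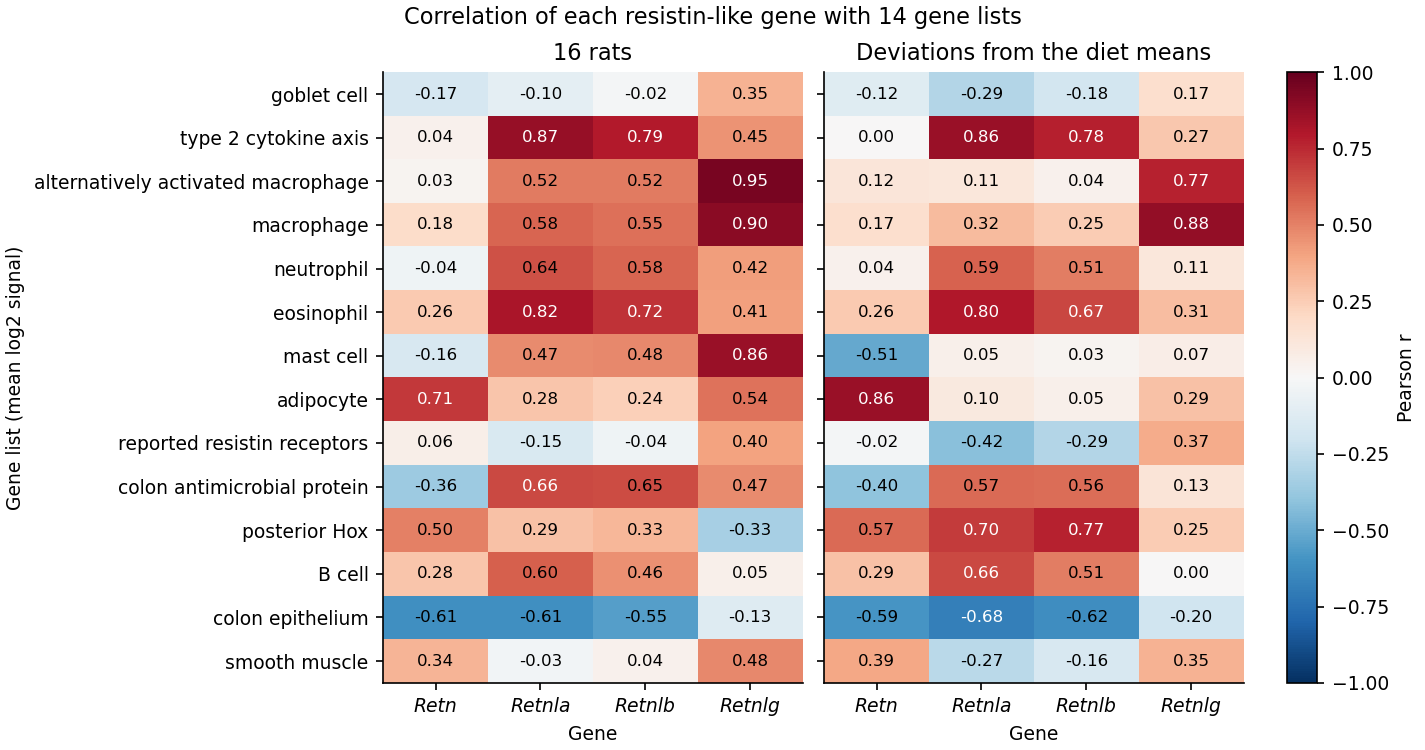
Pearson r of each member with the mean log2 signal of 14 gene lists over 16 rats (left) and over deviations from the diet means (right), from -1 in blue to 1 in red. Retn pairs with the mean of adipocyte genes, Retnla and Retnlb with the means of the type 2 cytokine and eosinophil lists, and Retnlg with the means of both macrophage lists in either panel. Posterior Hox genes go with Retnlb and Retnla mainly in the right panel (0.77 and 0.70, against 0.33 and 0.29). Mast cell genes go with Retnlg only in the left (0.86, against 0.07).

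Adipocyte genes went with Retn. Their mean over 11 tested genes had an r of 0.71 with Retn and of 0.86 after removal of the diet means, with Thrsp (0.82) and Adipoq (0.77) highest and Cidec (-0.39) lowest. The list mean ranged from 8.36 to 8.96 in C10 and from 8.80 to 9.64 in REF, and none of the 11 passed between these diets. Adipoq, which encodes adiponectin, stood at -1.74 (SE 0.62, adjusted p = 0.161), Thrsp at -1.26 (SE 0.60, adjusted p = 0.281) and Cfd at -1.10 (SE 0.38, adjusted p = 0.148). Retn itself differed by -0.12 (SE 0.56). How much fat tissue each piece of colon carried was not measured, and its part in the spread of Retn was not tested.

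The 4 genes reported as receptors or binding partners of resistin, Cap1, Tlr4, Dcn and Ror1, were well above background in all rats, and 0 of 4 passed. Dcn stood at -0.64 (adjusted p = 0.211), Tlr4 at 0.19 (adjusted p = 0.435) and Ror1 at 0.16 (adjusted p = 0.370). Among 9 antimicrobial proteins of the colon 0 passed, with Slpi at -1.30 (adjusted p = 0.0761), Itln1 at -0.84 (adjusted p = 0.573) and Duox2 at 0.40 (adjusted p = 0.288), and their mean had an r of 0.65 with Retnlb.

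The remaining lists describe the make-up of the piece of tissue, and 0 of their 24 tested genes passed between C10 and REF. The mean of 4 posterior Hox genes had an r of 0.33 with Retnlb, 0.29 with Retnla and -0.33 with Retnlg over the 16 rats and of 0.77, 0.70 and 0.25 with diet means removed. Over the 16 rats the r with Retnlb was 0.50 for Hoxb13, 0.10 for Hoxd10, 0.02 for Hoxd13 and -0.27 for Hoxd12. Hoxb13, Hoxd13 and Hoxd10 stood at 2.78 (SE 1.36), 1.0 (SE 0.43) and 0.99 (SE 0.42) in C10 against REF. B cell genes, such as Cd79b and Cr2 (0.76 and 0.70), were high in rats 1 and 3 of each diet, where the list mean was 8.09 to 10.42, and low in rats 2 and 4, where it was 6.93 to 7.34, and their r was 0.60 with Retnla and 0.05 with Retnlg. Epithelial genes (Car1 -0.64, Cdx2 -0.37, Lgals4 0.26) had an r of -0.61 with Retnla and -0.55 with Retnlb. Smooth muscle genes (Cnn1 -1.28, Actg2 -1.20, Des -0.97) had a mean of 12.37 in C10 rat 1, the rat with the lowest Retnlg, against 14.24 to 14.71 in the other C10 rats. Their part in the differences of the members was not tested. Against REF, limma gave 0 list genes out of 122 at an adjusted p below 0.05 in CF and 0 in I.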

How the data were processed

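The authors scanned 8 two-color Agilent arrays on 1 slide, and Agilent Feature Extraction 10.7.3.1, per the labels, gave the deposited linear median intensity and background of each spot and dye. The labels give each of the 16 rats 1 dye, although the methods speak of dye swaps. A deposited normalized table, whose 8 columns match no label, was not used. In R 4.3.3 with limma 3.58.1, intensities were corrected with normexp (offset 50), normalized by spatial and intensity loess and by Aquantile, the methods' steps, and kept as a log2 signal per rat. Probes well above background in at least 4 rats were kept (22537 of 30367), and the brightest stood for its gene. Diet and dye were fitted together, with a correlation of 0.475 between rats of an array, where the methods used rank products. Such fitted differences can depart from differences of means. The fit was tested on simulated data. P-values rest on a spread between rats that is pooled over the diets (4 rats each) and drawn toward that of all genes. Correlations used signals with the dye effect removed. The family, the 14 gene lists and the rule for named genes (the 5 genes most like a member, the 3 of a list with the largest C10 minus REF difference, and list genes that passed) were chosen with earlier results of these data known. Of the genes the rule names, 2 are not reported here.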

Additional observations from a re-analysis of the deposited data

Results flagged for a closer look

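In 2 of 16 groups of 4 rats (4 members in 4 diets) 1 rat lay far from the other 3 by Dixon's test at its 95 % level. Retnlb in C10 rat 3 (9.86) was the lowest of its diet, with a gap to the next rat of 0.919 of the range, and Retnlb in I rat 2 (12.27) was the lowest of its diet with a gap of 0.855. Chance flags about 1 in 20 such groups. I rat 2 was 1 of the 3 rats of low Hoxb13 (9.96), whereas Hoxb13 in C10 rat 3 was 13.42.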

How the results depend on the processing

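Differences between diets were taken again under 11 other settings, without each of 16 rats in turn and without the 3 rats of low Hoxb13 (chosen after seeing the data). For the members and for Retnlb and Retnla minus Retnlg, 839 of 840 values stayed within 1 SD of the rats. The exception was Retnlg, I minus REF, 0.86 without these 3 rats against 0.51. That SD was wide for Retnlb (1.82 for I minus REF), so 0.66 without REF rat 4 against 2.11 counted as unmoved. The differences from Retnlg were plain means except with log-ratios, and several settings could not move them. Over all settings and rats left out, C10 minus REF was between -0.62 and 0.40 for Retn, -1.34 and 0.06 for Retnla, -1.83 and -0.08 for Retnlb, and -2.03 and -1.27 for Retnlg. In C10, Retnlg was not called against any diet with log-ratios within arrays (where no gene was) or without the 3 rats, against REF without REF rat 1, and against CF with signals taken as independent or without C10 rat 3, CF rat 1 or CF rat 2.

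Counts of called genes moved by over 1.5 times, and the cause was not tested. Without the normexp offset they were 75 (C10 and REF), 37 (C10 and CF) and 59 (C10 and I), and 12 list genes in place of 7. With processed signals they were 83, 40 and 69, and 12 list genes. C10 minus REF gave 71 without normalization between arrays, 22 without the dye term and 17 without the block, and C10 minus CF gave 10 and 0 in the last 2. C10 minus I gave 20 with a term for arrays 1 to 4 against 5 to 8, a split made here that no label names. All C10 rats were on arrays 1 to 4 and all I rats on arrays 5 to 8. Log-ratios gave 0 in each, and 0 list genes. Without the 3 rats the counts were 15, 1 and 3, and 4 list genes. Leaving out 1 rat gave 17 (REF rat 2) to 106 (REF rat 3) for C10 and REF, 0 (CF rat 1) to 38 (C10 rat 1) for C10 and CF, 14 (I rat 2) to 60 (C10 rat 1) for C10 and I, and 0 to 1 (C10 rat 4) for I and REF. Of the 5 genes most like a member, 3 (Retn), 3 (Retnla), 4 (Retnlb) and 1 (Retnlg) remained by rank correlation, and 1, 2, 2 and 2 by deviations from the diet means. The number of rats, 4 a diet, limits the precision.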
